A study of Homo sapiens with 4 samples.

Results

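The genes described here are the receptors of the EGF receptor family and the ligands that bind them, measured in MDA-MB231 cells with a knockdown of PIAS1. Of 10 genes of this group, EGFR, ERBB2, ERBB3, AREG, EREG, HBEGF, TGFA, NRG1, BTC and ERRFI1, 8 were listed as the only gene of a probe set on the array, and they had 24 of the 19070 probe sets listed with exactly 1 gene. AREG and ERRFI1 were not analysed here, since the gene table used lists no probe set for them alone. The array was an Affymetrix human genome array, on which a probe set is a group of short probes for 1 transcript or for several related ones, and its value is a signal in array intensity units.

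MDA-MB231 is an established human line of triple-negative, mesenchymal breast cancer cells. The 4 conditions were PIAS1 shRNA2 cells in SCM, control shRNA cells in SCM, PIAS1 shRNA2 cells in DMEM and control shRNA cells in DMEM, each kept for 30 h and measured on 1 array. SCM is a serum-free stem cell medium on a DMEM/F-12 base with human EGF, basic FGF and insulin, and DMEM held 10% FBS. Both lines carried a lentiviral shRNA under the U6 promoter and were selected in puromycin; the control shRNA was a scrambled sequence, and PIAS1 shRNA2 was the only PIAS1 shRNA put on arrays. The media differ in serum, in growth factors and in the base medium, so the effects of these cannot be told apart.

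The EGF receptor family is a set of receptor tyrosine kinases that pair with each other at the cell surface. EGFR binds EGF, TGF-alpha, amphiregulin, epiregulin, HB-EGF and betacellulin, ERBB3 binds neuregulins and has a weak kinase, and ERBB2 has no known ligand of its own and acts as a partner of the others. The ligands are made as membrane proteins and are cut free by ADAM proteases, and the receptors signal through the RAS, RAF, MEK and ERK kinases and through PI3K and AKT.

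Each condition had 1 array, so single ratios carry no test and the order of any levels has no spread to set it against. Signals under 182, the highest of the 4 arrays' 75th percentiles over 77 probe sets of genes of other tissues, were treated as background and raised to that floor for ratios. A ratio with its lower signal under the floor is a bound and is written as such. Of the 24 probe sets, 20 were above the floor on at least 1 array and 15 on all 4. Shares of all probe sets are given over those above the floor on at least 1 of the 2 arrays compared. The only test was limma with shRNA and medium as terms over 15376 probe sets above the floor on at least 2 arrays, 19 of them of these genes. With 1 residual degree of freedom it tests effects shared by both lines or by both media. Its p-values rest on how far the 2 lines, or the 2 media, depart from a common effect. The variance of each probe set was drawn toward a trend over signal shared by all probe sets fitted. An SE is therefore not that probe set's own departure alone, and no p-value measures the spread of repeated cultures.

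The arrays had median signals of 569 to 605, and 64.7% to 68.4% of their probe sets lay above the floor. PIAS1 read 671 in PIAS1 shRNA2 cells and 1814 in control shRNA cells in SCM, and 512 and 1383 in DMEM, on its brightest probe set, a log2 ratio of -1.43 in both media. The other 2 PIAS1 probe sets had log2 ratios of -1.67 and -0.36 in SCM, the last with signals of 548 and 704, and of -2.07 and at most -1.91 in DMEM, so the size of the knockdown in SCM differed between probe sets. All 7 mesenchymal markers listed, VIM and CD44 among them, were above the floor on every array, with a summed signal of 204928 to 215505. Of 8 luminal markers, each read from its brightest probe set, 6 were above the floor on each array, and CDH1 and FOXA1 were under it on each. One of the 6, ESR1, had 9 probe sets, and only the brightest, at 206 to 706, was above the floor on each array. The paper reports that Q-PCR did not detect ESR1 in control shRNA cells, so this ESR1 reading is uncertain. Of 3 leukocyte genes measured, PTPRC was under the floor on each array. CD3D lay above it on 3 arrays, at 198 to 345, and CD14 on all 4. CD14 read 961 and 1172 in PIAS1 shRNA2 and control shRNA cells in SCM, against 355 and 627 in DMEM. The samples were of a cultured cell line, and the source of the CD3D and CD14 signals was not tested. ACTB control probe sets near the 3' and the 5' end of the transcript, whose ratio tracks RNA quality, had a 3' over 5' ratio of 1.11 in PIAS1 shRNA2 and 1.07 in control shRNA cells in SCM, and 0.946 and 0.982 in DMEM.

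Between SCM and DMEM, EREG and ERBB3 were higher in SCM and NRG1 was lower in SCM, in both lines, while EGFR, ERBB2 and HBEGF lay under 2-fold. In PIAS1 shRNA2 cells, 2 of the 20 probe sets above the floor were at least 2-fold higher in SCM, against 10.5% of all probe sets, and 2 were 2-fold lower or more, against 10.1%. In control shRNA cells these were 2 of 19, against 11%, and 2 of 19, against 10.1%. The counts of these genes were therefore near those of the whole array. The median log2 ratio of these probe sets was -0.073 in PIAS1 shRNA2 cells and 0.081 in control shRNA cells, beside -0.016 and 0.041 over all probe sets. In limma, 5 of the 19 probe sets passed an adjusted p of 0.05, or 26.3%, against 44.4% of all probe sets fitted: 3 were higher in SCM, where 21.7% of all were, and 2 were lower, where 22.7% were. With any 1 of the 4 arrays left out 0 passed, of these genes or of all.

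**Figure D1:**
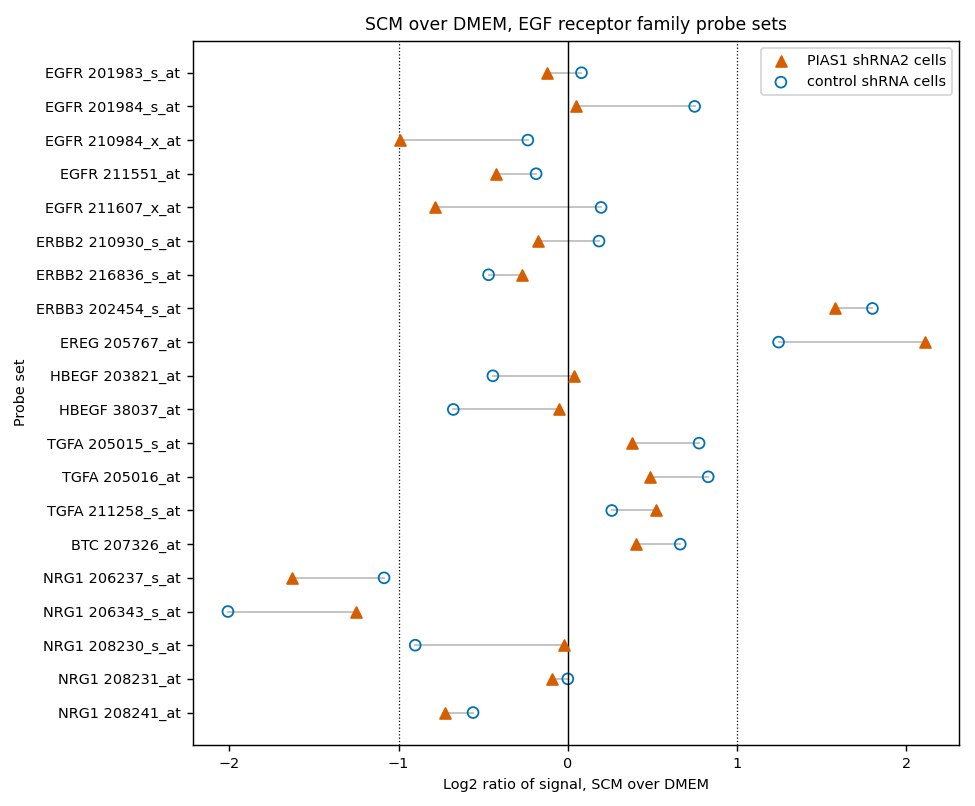
Log2 ratio of signal, SCM over DMEM (x axis), for the 20 probe sets above the floor on at least 1 array (y axis), 1 array per condition. Triangles are PIAS1 shRNA2 cells, open circles are control shRNA cells and dotted lines mark 2-fold; EREG and ERBB3 lie beyond 2-fold to the right in both lines and NRG1 206343_s_at and 206237_s_at to the left, with an EREG ratio of 2.11 in PIAS1 shRNA2 and 1.25 in control shRNA cells.

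EREG, which encodes the ligand epiregulin, had the largest ratio of these genes in PIAS1 shRNA2 cells. On its probe set, 205767_at, EREG had a signal of 6892 in SCM and 1598 in DMEM in PIAS1 shRNA2 cells, a 4.31-fold difference. In control shRNA cells the EREG signal was 3610 in SCM and 1522 in DMEM, a 2.37-fold difference. Both SCM signals lay above both DMEM signals, and the DMEM signals of the 2 lines lay close to each other. Of all probe sets, 1.88% had a ratio as high as that of EREG in PIAS1 shRNA2 cells and 7.04% had one as high in control shRNA cells. EREG rose in SCM in limma by 1.68 on the log2 scale (SE 0.21, adjusted p = 3.31e-05). In limma without the trend of the variance over signal the adjusted p was 0.0124.

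EREG, AREG and BTC lie in this order beside one another on chromosome 4 in the RefSeq annotation of GRCh38.p14, with only long noncoding genes between AREG and BTC. The upstream sequence of EREG, the gene with the largest ratio between the media in PIAS1 shRNA2 cells, is shown beside that of HBEGF, a ligand gene under 2-fold in both lines. Each is the 250 bases before the RefSeq start, at chr4:74364895-74365144 on the plus strand for EREG and at chr5:140346604-140346853 on the minus strand for HBEGF, with matches to the motifs searched in capitals.
EREG: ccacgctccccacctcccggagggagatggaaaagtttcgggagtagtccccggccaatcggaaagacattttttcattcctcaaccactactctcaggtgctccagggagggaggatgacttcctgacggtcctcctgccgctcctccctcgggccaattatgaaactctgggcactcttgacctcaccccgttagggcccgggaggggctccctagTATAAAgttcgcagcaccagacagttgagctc
HBEGF: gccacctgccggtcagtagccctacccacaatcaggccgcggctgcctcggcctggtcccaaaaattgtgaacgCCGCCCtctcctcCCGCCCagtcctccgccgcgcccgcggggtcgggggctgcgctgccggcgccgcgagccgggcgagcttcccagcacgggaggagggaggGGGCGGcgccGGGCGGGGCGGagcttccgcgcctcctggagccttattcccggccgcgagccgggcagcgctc
The motifs were AP-1 (TGANTCA), the cAMP response element (TGACGTCA), the SP1 GC box (GGGCGG) and the TATA box (TATAAA), each searched on both strands. The EREG window held 1 TATA box, from 32 to 27 bases before the start, and none of the others. The HBEGF window held 5 GC boxes, of which the last 2 share a base, and none of the others. Over 35116 RefSeq windows of the same length, 10.7% held the TATA box, 42.6% the GC box, 6.57% AP-1 and 1.65% the cAMP response element. RefSeq upstream sequences were matched by symbol for 6 of the 8 genes, and not for ERBB3 and NRG1. Of the windows not shown, 1 of EGFR held 2 TATA boxes and 2 AP-1 matches, and the other held 2 GC boxes. For TGFA, 1 window held 3 GC boxes and the other held none of the motifs. The ERBB2 window held 1 AP-1 match, and the BTC window none of the motifs. Whether the motifs go with the ratios was not tested. A match of letters is a description and not a bound site.

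ERBB3, the neuregulin receptor, was read by probe set 202454_s_at. Its signal was 862 in SCM and 289 in DMEM in PIAS1 shRNA2 cells, 2.99-fold higher in SCM. In control shRNA cells the ERBB3 signal was 1157 in SCM and 332 in DMEM, 3.48-fold higher. The order of the 4 conditions was control shRNA in SCM, PIAS1 shRNA2 in SCM, control shRNA in DMEM and PIAS1 shRNA2 in DMEM, from high to low, so the media were separated and the lines were less far apart within each. ERBB3 rose in limma by 1.69 (log2, SE 0.28, adjusted p = 0.000339, and 0.00632 without the trend of the variance). The other ERBB3 probe set, 215638_at, was under the floor on all 4 arrays, with signals from 31.5 to 131. The DMEM signals of ERBB3 were dim. With the floor at 605, the highest array median, its log2 ratio was 0.51 in PIAS1 shRNA2 and 0.93 in control shRNA cells, under 2-fold.

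The summed signal of the 8 luminal markers, genes of the breast cells known for ERBB3, was also higher in SCM, at 18420 and 27453 in PIAS1 shRNA2 and control shRNA cells, against 9774 and 11839 in DMEM. Most of the sum in SCM came from KRT19, a keratin gene, with 12434 and 18700 in SCM and 3680 and 4181 in DMEM. GATA3, a luminal transcription factor, went the other way, with 1718 and 3103 in SCM and 4765 and 6040 in DMEM. Of the 6 luminal markers above the floor the other 5 had higher signals in SCM in both lines. For ESR1 this rests on the uncertain reading of the 1 probe set described above. The part of these markers in the ERBB3 result was not tested, and in such bulk RNA more cells of a type and more RNA per cell cannot be told apart. The ACTB ratio given above also differed between the media, and its part in these results was not tested.

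NRG1, which encodes neuregulin 1 (heregulin), the ligand of ERBB3 and of the receptor ERBB4, had 6 probe sets. On the brightest, 206343_s_at, the NRG1 signal was 2678 in SCM and 6391 in DMEM in PIAS1 shRNA2 cells, 2.39-fold lower in SCM. In control shRNA cells this NRG1 probe set read 1160 in SCM and 4668 in DMEM, 4.02-fold lower. Only 1.57% of all probe sets had a ratio as low as that in control shRNA cells, and 6.42% had one as low as that in PIAS1 shRNA2 cells. The NRG1 signal thus had the order PIAS1 shRNA2 in DMEM, control shRNA in DMEM, PIAS1 shRNA2 in SCM and control shRNA in SCM, from high to low, and the SCM and DMEM signals did not overlap. NRG1 fell in SCM in limma on this probe set, with a log2 difference of -1.63 (SE 0.19, adjusted p = 2.34e-05). Without the trend of the variance the adjusted p in limma was 0.0112.

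The other NRG1 probe sets were dimmer and not all alike. On 206237_s_at the NRG1 signal was 207 in SCM and 640 in DMEM in PIAS1 shRNA2 cells, and 158, under the floor, in SCM and 385 in DMEM in control shRNA cells. It fell in SCM as well in limma (-1.36, SE 0.30, adjusted p = 0.00272, and 0.0120 without the trend of the variance). On 208230_s_at the NRG1 signals of PIAS1 shRNA2 cells were alike, 498 in SCM and 507 in DMEM, and those of control shRNA cells were 121 and 339. That probe set did not pass in limma (-0.46, SE 0.31, adjusted p = 0.259). On 208241_at the NRG1 signals were 117 and 300 in PIAS1 shRNA2 cells and 23.6 and 268 in control shRNA cells, SCM before DMEM. Both SCM signals were under the floor. The adjusted p in limma was 0.0944, and 0.0415 without the trend of the variance, so whether this probe set passed depended on that setting. The NRG1 probe set 208232_x_at was under the floor on each array, and 208231_at was above it only in PIAS1 shRNA2 cells in DMEM, at 194. Each of the 4 probe sets with a value in both lines thus had a negative ratio in both, with log2 values from -2.01 to -0.025, bounds included. With the floor at 605, the ratio of 206237_s_at was -0.081 in PIAS1 shRNA2 cells, and its control shRNA signals were both under that floor.

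TGFA, which encodes TGF-alpha, had a higher signal in SCM on each of its 3 probe sets in both lines. On the brightest, 205016_at, TGFA read 6105 in SCM and 4369 in DMEM in PIAS1 shRNA2 cells, 1.40-fold higher. In control shRNA cells it read 7256 in SCM and 4083 in DMEM, 1.78-fold higher. This TGFA probe set passed in limma (0.66, SE 0.14, adjusted p = 0.00244), and it is the only one of the 5 called that lay under 2-fold in each line. Without the trend of the variance its adjusted p in limma was 0.0483, close to the threshold. On 205015_s_at the TGFA signal was 1061 in SCM and 815 in DMEM in PIAS1 shRNA2 cells, and 1112 and 650 in control shRNA cells (adjusted p = 0.0874 in limma). On 211258_s_at it was 1322 and 920, and 1432 and 1196, in the same order (adjusted p = 0.192).

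HBEGF, the gene of the ligand HB-EGF, differed less between the media. On 203821_at HBEGF read 10498 in SCM and 10239 in DMEM in PIAS1 shRNA2 cells, and 8048 and 10939 in control shRNA cells. On 38037_at it read 5054 and 5242 in PIAS1 shRNA2 cells, and 3200 and 5116 in control shRNA cells. On both probe sets the control shRNA cells in SCM were lowest and the other 3 conditions lay close together. Neither passed in limma (adjusted p = 0.246 and 0.0933), and the third HBEGF probe set, 222076_at, was under the floor throughout, at 8.12 to 24.8. BTC, the betacellulin gene, was dim on its 1 probe set, with 277 in SCM and 209 in DMEM in PIAS1 shRNA2 cells. In control shRNA cells BTC read 288 in SCM and 155, under the floor, in DMEM, a ratio of at least 1.58, and it did not pass in limma (adjusted p = 0.163).

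EGFR, the receptor for EGF itself, showed no difference that passed the test. On 201983_s_at the EGFR signal was 6080 in SCM and 6627 in DMEM in PIAS1 shRNA2 cells, and 5857 and 5538 in control shRNA cells (log2 difference -0.022, SE 0.13, adjusted p = 0.915 in limma). On 201984_s_at EGFR read 5174 and 5007 in PIAS1 shRNA2 cells, and 6936 and 4126 in control shRNA cells, with control shRNA cells in SCM above the rest (adjusted p = 0.0720). The dimmer EGFR probe sets differed from these. On 210984_x_at the EGFR signal was 574 in SCM and 1140 in DMEM in PIAS1 shRNA2 cells, a log2 ratio of -0.99, and 901 and 1061 in control shRNA cells, a ratio of -0.24. On 211607_x_at it was 516 and 889 in PIAS1 shRNA2 cells, and 863 and 753 in control shRNA cells. On both of these, PIAS1 shRNA2 cells in SCM were lowest, and neither passed in limma (adjusted p = 0.0875 and 0.460). The EGFR probe set 211551_at lay between 206 and 355 and 211550_at under the floor, at 13.5 to 39.8. Probe sets with the ending _x_at hold probes that can also bind other transcripts, so the 2 of this kind are less certain readings of EGFR.

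ERBB2, the partner receptor HER2, was also within 2-fold. On 216836_s_at the ERBB2 signal was 1969 in SCM and 2376 in DMEM in PIAS1 shRNA2 cells, and 1677 and 2320 in control shRNA cells (-0.37, SE 0.19, adjusted p = 0.130 in limma). Both SCM signals lay under both DMEM signals. On 210930_s_at ERBB2 lay between 305 and 418 on the 4 arrays, with a log2 difference between the media of 0.0034 (SE 0.29).

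**Figure D2:**
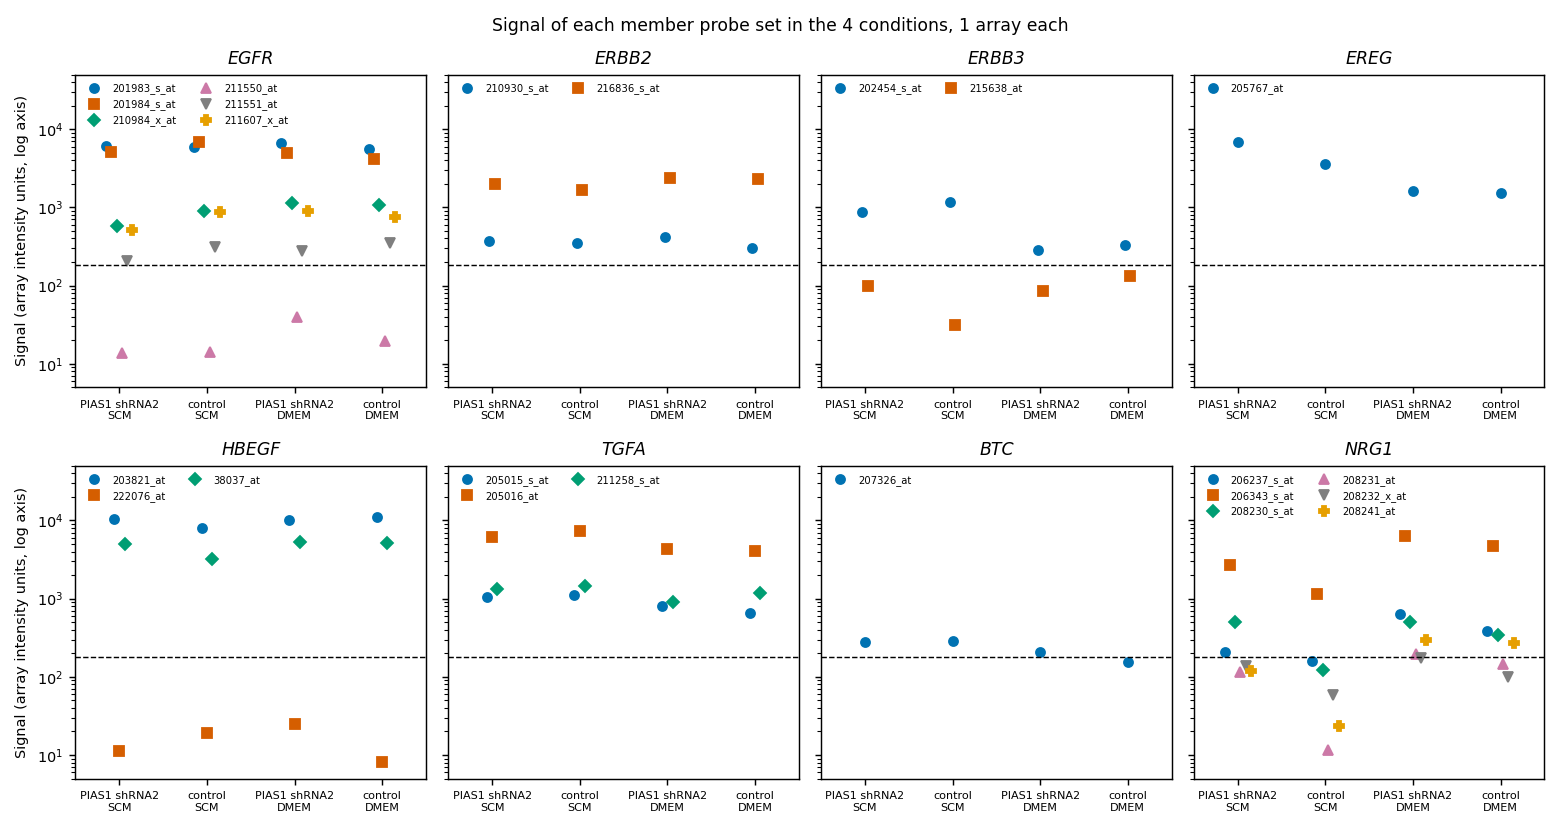
Signal (log y axis, in units of array intensity) for every probe set of the 8 genes in the 4 conditions (x axis), 1 array each, 1 panel per gene and 1 marker per probe set. The dashed line is the floor of 182; the EREG and ERBB3 markers above it are higher in SCM than in DMEM, the brightest NRG1 marker is lower in SCM, and the bright EGFR, ERBB2 and HBEGF markers stay within 2-fold.

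Between PIAS1 shRNA2 and control shRNA cells, NRG1 was the only one of these genes with a 2-fold difference, and only in SCM, where it was higher in PIAS1 shRNA2 cells. In SCM 2 of the 18 probe sets above the floor were at least 2-fold higher, against 2.05% of all probe sets, both of them of NRG1, and 0 were at least 2-fold lower, against 1.65%. In DMEM 0 of 20 were at least 2-fold different in either direction, against 2.63%. The median log2 ratio was -0.0013 in SCM and 0.13 in DMEM, beside -0.0047 and 0.022 over all probe sets. In limma 0 of the 19 passed, against 0.793% of all probe sets fitted, and 3 had an unadjusted p under 0.05, 2 of NRG1 and that of EREG, where 10.4% of all probe sets did; without the trend of the variance 0 passed as well. The comparisons in SCM and DMEM use separate arrays, while each array enters both a comparison of lines and one of media.

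On 206343_s_at the NRG1 signal in SCM was 2678 in PIAS1 shRNA2 cells and 1160 in control shRNA cells, 2.31-fold higher. In DMEM it was 6391 and 4668, 1.37-fold higher. Of all probe sets, 1.19% had a ratio as high in SCM and 10.8% had one as high in DMEM. On 208230_s_at NRG1 read 498 in PIAS1 shRNA2 cells and 121 in control shRNA cells in SCM, at least 2.74-fold higher, and 507 and 339 in DMEM, 1.49-fold higher. On 206237_s_at the NRG1 signals were 207 and 158 in SCM, with the control shRNA signal under the floor, and 640 and 385 in DMEM, 1.66-fold higher. In each medium the PIAS1 shRNA2 signal was above that of control shRNA on these 3 probe sets. The adjusted p in limma was 0.0836 for 206343_s_at (0.83, SE 0.19), 0.244 for 208230_s_at (1.02, SE 0.31) and 0.657 for 206237_s_at (0.46, SE 0.30).

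**Figure D3:**
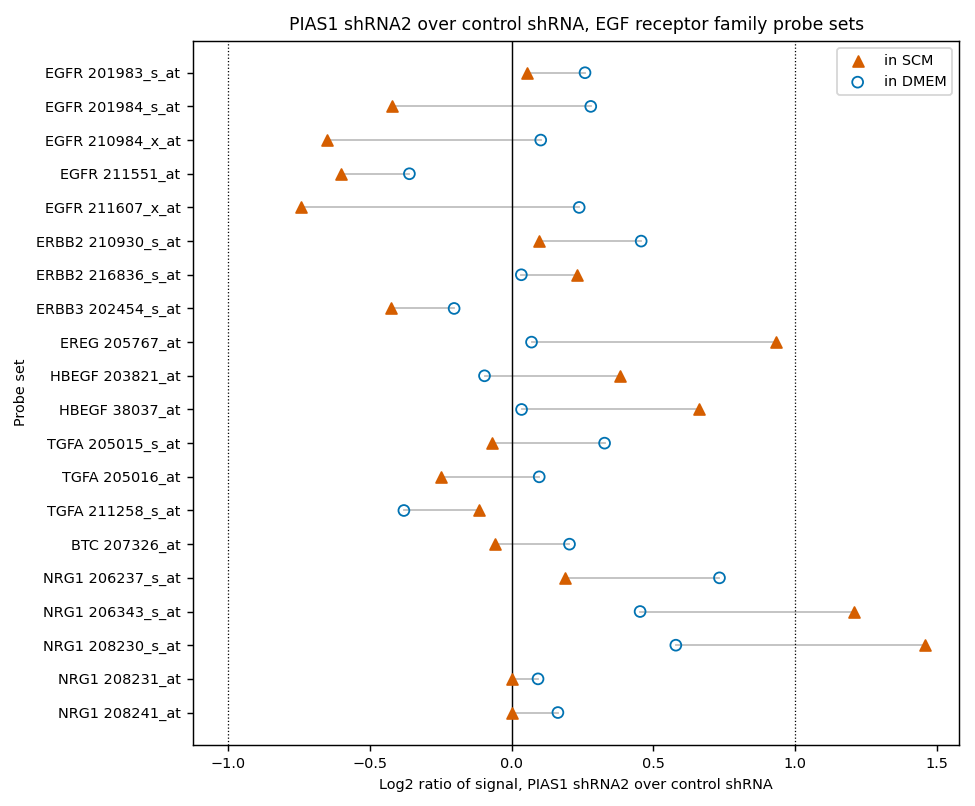
Log2 ratio of signal, PIAS1 shRNA2 over control shRNA (x axis), for the 20 probe sets above the floor on at least 1 array (y axis), 1 array per condition. Triangles are SCM, open circles are DMEM and dotted lines mark 2-fold; only NRG1 206343_s_at at 1.21 and 208230_s_at at 1.46 or more lie beyond it, both in SCM, and EREG lies at 0.93 in SCM and 0.070 in DMEM.

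EREG was 1.91-fold higher in PIAS1 shRNA2 cells in SCM, with 6892 against 3610 in control shRNA cells, just under 2-fold, and 1.05-fold higher in DMEM, with 1598 against 1522. In SCM 2.40% of all probe sets had a ratio as high as that of EREG. The log2 ratio of EREG in SCM minus that in DMEM was 0.86, a size reached by 7.06% of the 13020 probe sets above the floor on all 4 arrays. This difference was not tested, as each condition had 1 array. In limma EREG did not pass for the knockdown (0.50, SE 0.21, adjusted p = 0.401).

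The HBEGF signal on 203821_at was 10498 in PIAS1 shRNA2 cells and 8048 in control shRNA cells in SCM, a log2 ratio of 0.38, and 10239 and 10939 in DMEM, a ratio of -0.095. On 38037_at the HBEGF ratios were 0.66 in SCM and 0.035 in DMEM. The EGFR probe sets did not go 1 way. In SCM the brightest EGFR probe set, 201983_s_at, had a log2 ratio of 0.054, and the other 4 above the floor had -0.42 to -0.74. In DMEM 4 of these 5 EGFR probe sets had ratios of 0.10 to 0.28, and 211551_at had -0.36. ERBB3 had log2 ratios of -0.42 in SCM and -0.20 in DMEM. The ERBB2 ratios lay between 0.034 and 0.46, those of TGFA between -0.38 and 0.33, and BTC had -0.057 in SCM and at least 0.20 in DMEM. The median size of the difference between the SCM and DMEM ratios was 0.25 over the 13020 probe sets, and 5% of them differed by over 0.97. Of the 15 probe sets of these genes above the floor on all 4 arrays, only EGFR 211607_x_at went beyond that, with -0.98.

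Other genes of the family and pathway were read from their brightest probe sets, over lists chosen for their place in EGF receptor signaling. Earlier results of these data were known when the lists were chosen. Their counts and medians beside those of all genes are therefore descriptions and not a test of the lists. EGF, the gene of the growth factor that SCM supplies as protein, read 861 in SCM and 385 in DMEM in PIAS1 shRNA2 cells, and 530 and 180, the last under the floor, in control shRNA cells. EGF passed in limma between the media (1.35, adjusted p = 0.00224) and not between the lines (0.89, adjusted p = 0.275), where its signal was 1.63-fold higher in PIAS1 shRNA2 cells in SCM and at least 2.12-fold in DMEM. ERBB4, the other neuregulin receptor, was above the floor only in PIAS1 shRNA2 cells in SCM, at 333, and NRG2, a further neuregulin gene, was so only there, at 200.4.

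Of 9 measured genes of ligand shedding, 4 were at least 2-fold higher in SCM in PIAS1 shRNA2 cells, against 10.9% of 9303 genes. In control shRNA cells 2 were, against 10.8% of 9197. The count at least 2-fold lower was 0 in both lines, against 10.4% and 10.7% of all genes. A count of 0 among so few genes is near those shares. The median log2 ratio of the list was 0.66 and 0.80, beside -0.010 and 0.035 over all genes. ADAM8, a cell surface protease, read 17551 in SCM and 1993 in DMEM in PIAS1 shRNA2 cells, and 17127 and 2293 in control shRNA cells. ADAM17, the main sheddase of TGF-alpha, epiregulin and HB-EGF, had log2 ratios of 1.16 and 0.80 in PIAS1 shRNA2 and control shRNA cells. ADAM19, a shedding protease of neuregulin, had 1.29 and 1.38, and RHBDF2, a rhomboid-like partner of ADAM17, had 1.19 and 0.98. All of these named genes passed in limma between the media, with adjusted p from 1.23e-08 for ADAM8 to 0.000285 for ADAM17.

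Of 21 adaptors and effectors, 2 were at least 2-fold higher and 1 lower in PIAS1 shRNA2 cells in SCM, and 1 and 2 in control shRNA cells. Over all genes 10.9% were as much higher and 10.4% lower in PIAS1 shRNA2 cells, and 10.8% and 10.7% in control shRNA cells, so these counts were at or below those shares. The median log2 ratio of the list was 0.17 and 0.081. MAPK3, which encodes the kinase ERK1, had log2 ratios of 2.38 and 1.17, on an _x_at probe set. HRAS, a RAS gene, had -1.27 and -1.22. PIK3R1, the regulatory subunit of PI3K, had -0.68 and -1.20. GAB2, an adaptor, had 1.25 in PIAS1 shRNA2 and -0.95 in control shRNA cells. MAPK3, HRAS and PIK3R1 passed in limma (adjusted p = 5.42e-05, 5.47e-06 and 0.0190) and GAB2 did not (0.802). Of 12 genes of receptor down-regulation, 1 was at least 2-fold higher in each line and 0 were lower, against the same shares of 10.9% and 10.8% higher and 10.4% and 10.7% lower over all genes. They were SOCS3, a suppressor of cytokine signaling, with 1.18 and 0.12, and CBLB, a ubiquitin ligase of receptors, with 0.67 and 1.15. LRIG1, a membrane protein that lowers receptor levels, had 0.90 and 0.81, and PTPN1, a phosphatase that acts on EGFR, had -0.73 and -0.79. CBLB, LRIG1 and PTPN1 passed in limma (adjusted p = 0.00227, 9.36e-05 and 0.000268) and SOCS3 did not (0.114).

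Of 15 measured ERK target genes, 6 were at least 2-fold higher in SCM in each line, and 2 were lower by that much in PIAS1 shRNA2 cells and 1 in control shRNA cells. Over all genes 10.9% and 10.8% were as much higher and 10.4% and 10.7% lower, so the counts of lower genes were near those shares. The median log2 ratio of the list was 0.55 and 0.73, beside -0.010 and 0.035 over all genes. EGR1, an immediate early transcription factor, read 8065 in SCM and 246 in DMEM in PIAS1 shRNA2 cells, and 11912 and 260 in control shRNA cells. FOS read 759 and 14.3 in PIAS1 shRNA2 cells, and 1301 and 29.8 in control shRNA cells, at least 4.18-fold and 7.17-fold higher in SCM. DUSP6, a phosphatase of ERK, had log2 ratios of 1.54 and 2.19. CCND1, the cyclin D1 gene, went the other way, with -2.61 and -2.65. These 4 genes passed in limma, with adjusted p from 7.41e-09 for EGR1 to 3.82e-05 for FOS. Of the ERK target genes, 0 were at least 2-fold different between PIAS1 shRNA2 and control shRNA cells in SCM or in DMEM. Over all genes 2.20% were higher and 1.51% lower in SCM, and 1.57% and 0.867% in DMEM, so a count of 0 among so few genes is near the shares of the whole array.

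**Figure D4:**
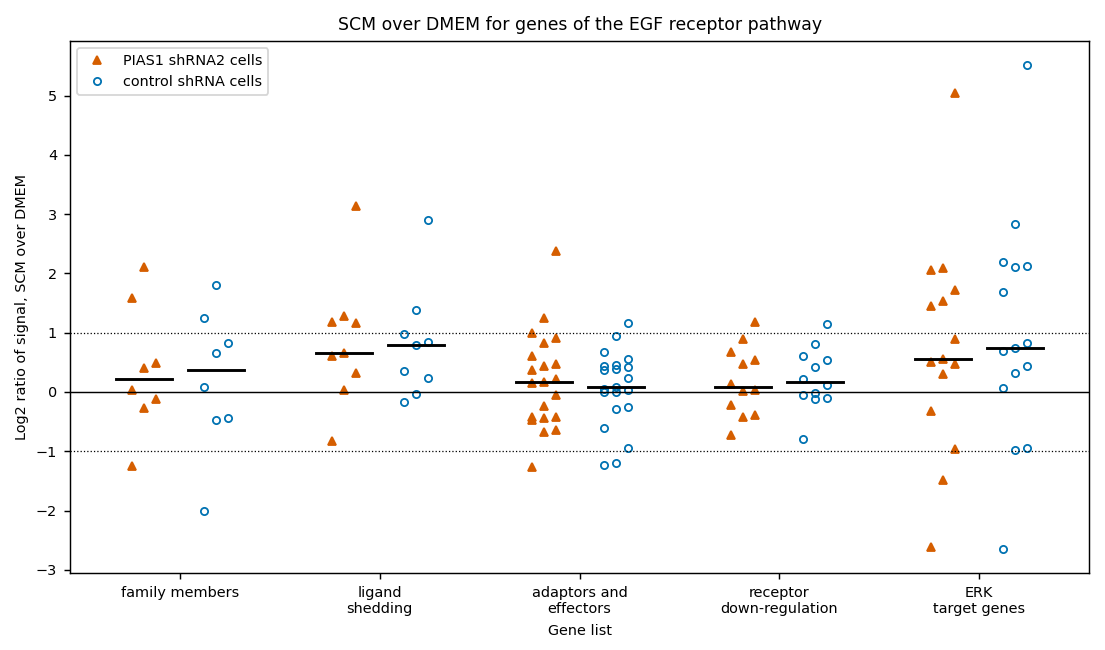
Log2 ratio of signal, SCM over DMEM (y axis), for the genes of 5 lists (x axis), each gene from its brightest probe set and 1 array per condition. Triangles are PIAS1 shRNA2 cells, open circles control shRNA cells, bars the list medians and dotted lines 2-fold; the medians are 0.22 and 0.37 for the family members, 0.66 and 0.80 for ligand shedding and 0.55 and 0.73 for the ERK target genes, with EGR1 highest and CCND1 lowest.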

How the data were processed

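RNA of 4 conditions was measured on 1 array each. The authors deposited signal intensities on a linear scale from Affymetrix arrays, made with MAS5 according to the processing notes of the submitters; no detection calls were used, and version and settings are not stated there. A single scaling of each array by the authors left a mean of 2501 without the lowest and highest 2% on each. Of 22277 probe sets, 19070 were listed with 1 gene, 1043 with several and 2164 with none here.

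The floor was the highest of the 4 arrays' 75th percentiles over 77 probe sets of 66 genes of other tissues. The 62 control probe sets were left out of shares and fits. Where a gene is read once, the brightest probe set by mean log2 signal was used. limma 3.58.1 in R 4.3.3 was fitted to log2 signals raised to the floor, with a variance trend over signal and Benjamini-Hochberg adjustment over all 15376 probe sets, with 0.05 as the threshold. Every probe set of the genes described is reported, and of each other list up to 4 genes with the largest ratio between the media. The members and lists were chosen with earlier results of these data known. Alternatives were other floors, other scalings, and other fits. The steps were also run on simulated arrays, with the same log2 noise at all signals and equal changes in both lines. The real arrays need not meet these settings, so that run does not show how well the steps do on them. The number of arrays limits the precision, and intensities give no depth. Python 3.11.15, NumPy 2.4.6, pandas 2.3.3 and matplotlib 3.10.9 served for other steps.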

Additional observations from a re-analysis of the deposited data

Results flagged for a closer look

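Each of these results had opposite directions in the 2 lines or in the 2 media. With 1 array per condition the differences were not tested, and of these ratios only that of 1.25 is past 2-fold. Between SCM and DMEM, GAB2 had a log2 ratio of 1.25 in PIAS1 shRNA2 cells and -0.95 in control shRNA cells. EGFR had -0.12 and 0.081 on 201983_s_at and -0.78 and 0.20 on 211607_x_at, ERBB2 had -0.18 and 0.18 on 210930_s_at, and HBEGF had 0.036 and -0.44 on 203821_at, in the same order of lines. Between PIAS1 shRNA2 and control shRNA cells, EGFR had a log2 ratio of -0.42 in SCM and 0.28 in DMEM on 201984_s_at, -0.65 and 0.10 on 210984_x_at and -0.74 and 0.24 on 211607_x_at. HBEGF had 0.38 and -0.095 on 203821_at, TGFA had -0.069 and 0.33 on 205015_s_at and -0.25 and 0.098 on 205016_at, and BTC had -0.057 and at least 0.20, in the same order of media.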

How the results depend on the processing

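With no floor on low signals, the probe sets of these genes at least 2-fold different numbered 7 between the media in PIAS1 shRNA2 cells, against 4 with the floor, and 9 in control shRNA cells, against 4. Between the lines they then numbered 6 in SCM, against 2, and 2 in DMEM, against 0. With the floor at the highest array median, 605, they numbered 2, 2, 1 and 0 in the same order, since dim signals of ERBB3 and NRG1 then show no difference or a smaller one. Quantile normalization and scaling to a common median kept each count within 1.5 times, and EGFR 210984_x_at then had log2 ratios of -1.01 and -1.02 between the media in PIAS1 shRNA2 cells. Over these 4 settings 297 ratios of single probe sets stayed on their side of 2-fold and 11 crossed it, and 0 of those past 2-fold changed sign. Without a floor the median ratio of all probe sets moved by 0.10 (log2) between the media in control shRNA cells. In limma, leaving out any 1 array, which also drops the other term, gave 0 calls for the media at the lowest and 0 at the highest, against 5, and 0 over all probe sets; fewer arrays and no term for the line enter those fits. The other limma settings gave 5 or 6 calls for the media and each gave 0 for the knockdown, where without the trend 1 probe set of all was called. The limma fit compared the media within each line through its term for the shRNA. No pairing of replicate cultures was possible because each condition has 1 array and the labels give no replicate numbers. Signals near the floor limit ERBB3 in DMEM, BTC and most NRG1 probe sets.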
